A study of Bos taurus with 8 samples.

Results

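Heat shock proteins and chaperones of the endoplasmic reticulum (ER) were followed in bovine cleavage embryos in which RPL12, a gene of the large ribosomal subunit, had been edited. The genes were chosen by name: 10 were listed and 9 of them are among the 16606 genes of the deposited table, namely the cytosolic chaperones HSP90AA1, HSP90AB1 and HSPA8, the ER chaperones HSPA5 and HSP90B1, the mitochondrial chaperones HSPA9, HSPD1 and HSPE1, and the transcription factor HSF1. HSPA1A, the stress-inducible cytosolic HSP70, was not analysed here. The list sets no threshold on a measured value, and all 9 genes passed the filter for testing.

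Chaperones bind unfolded or partly folded proteins and help them to fold, assemble or cross membranes. HSP70 proteins bind short hydrophobic stretches in cycles of ATP hydrolysis started by J-domain (HSP40) partners, HSP90 proteins act later on folded clients such as kinases and receptors, and chaperonins enclose a client in a barrel. HSF1 switches on heat-inducible chaperone genes after heat or other protein damage, whereas the unfolded protein response switches on ER chaperone genes. In the early embryo most transcripts were stored in the oocyte until the embryonic genome takes over, which in cattle occurs mainly around the 8-cell stage.

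The study held 4 groups of 2 libraries: unedited control embryos and edited embryos, each collected at 4 cells and at 8 cells. All embryos came from in vitro matured and in vitro fertilised oocytes of slaughterhouse ovaries, and a pool of 5 embryos gave 1 library by SMART-Seq amplification of polyadenylated RNA. Zygotes of the edited groups received PEmax (a prime editor, in which a Cas9 nickase is fused to a reverse transcriptase) and a guide RNA by injection into the cytoplasm. The edit is named A148G in the design text, without a starting point for its position. In the titles the treatment is called base editing, and 4-cell samples, followed here by their titles, carry the cell type of oocytes. The labels do not say whether control zygotes were injected, what share of alleles was edited, or whether the pools of a group came from separate fertilisations. P-values therefore rest on the spread between pools, whatever its source. In the limma tests this spread was pooled over the 4 groups and moderated by that of genes of similar level.

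Each library had 33527531 to 35122409 reads on genes, and the least covered member, HSF1, had at least 285 reads in each. Values are CPM, the reads of a gene per 1000000 reads, which is a share of the library and not an amount per embryo. RPL12 stood at 159 and 174 CPM in the 4-cell control libraries, at 27.5 and 33.6 in the 4-cell edited, at 96.3 and 97.6 in the 8-cell control and at 14.1 and 11.9 CPM in the 8-cell edited libraries, so that every edited library lay below every control library. The 13 oocyte and early embryo markers in the table summed to 18569.9 and 23979.7 CPM in 4-cell control libraries and to between 34645 and 51652 CPM in the other 6. Markers of other cells of the follicle were also present, and their sums differed between the groups. Over 18 granulosa and cumulus markers the sum was 1480.1 and 1934 CPM in 4-cell control, 613 and 639 CPM in edited 4-cell embryos, 700.2 and 1029.7 CPM among 8-cell controls, and 623 and 627 CPM in 8-cell edited libraries. Over 10 stromal and theca markers it was 4698 and 7874 CPM, 1527 and 2267 CPM, 3344 and 3698 CPM, and 226 and 887 CPM in the same order. None of the 28 was at 0 in every library, although CYP17A1 stayed at or below 0.06 CPM, less than 3 reads. At a limma adjusted p under 0.05, 10 of 17 tested granulosa and cumulus markers were lower and 2 higher in edited 4-cell embryos. Of all tested genes, 25.8% were lower and 18.9% higher there. At the 8-cell stage 4 of the 17 were lower and 0 higher, beside 14.5% and 1.08% of all tested genes. HAS2 stood at 24.3 and 55.4 CPM in 4-cell control against 132 and 124 CPM in 4-cell edited libraries. LUM held most of the stromal sum and BTG4 most of the oocyte sum in every library.

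**Figure D1:**
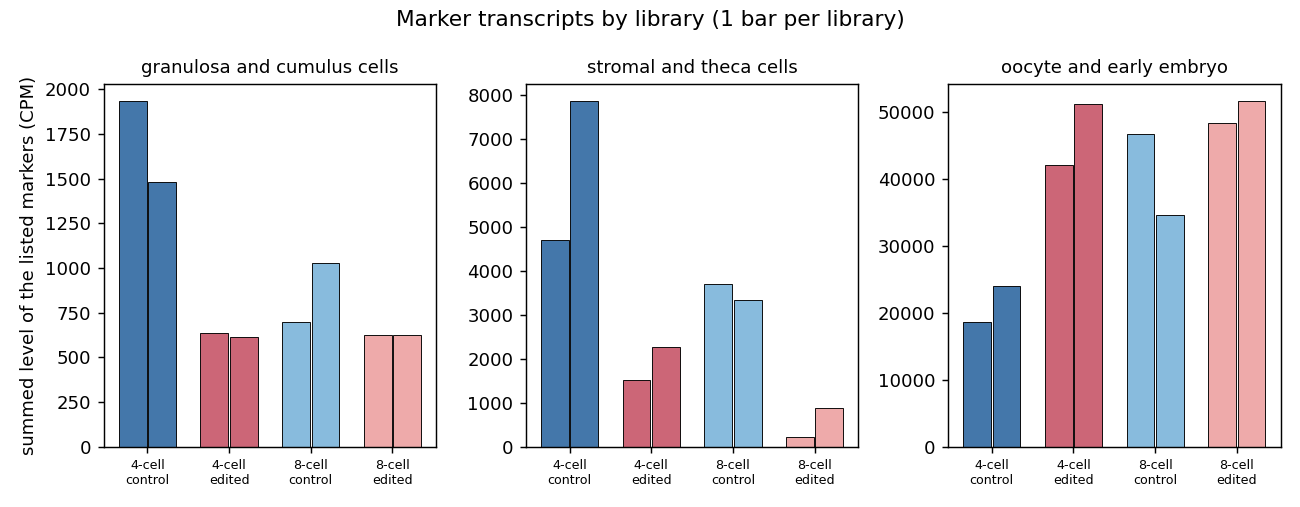
Summed level of marker transcripts in CPM (y axis, from 0) for 3 fixed lists, with 1 bar per library and groups along the x axis. The granulosa and cumulus sum was highest in the 4-cell control libraries, at 1480.1 and 1934 CPM, and lay between 613 and 639 CPM in the 4 edited libraries.

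As shares of each library's reads, 4 of the 9 chaperone genes were lower in edited embryos at both stages: HSPA8, HSPA5, HSPD1 and HSP90AB1. In each of these the 4 edited libraries all lay below the 4 control libraries, a separation in this direction that 19.6% of the 12129 tested genes showed. Within the 4-cell stage both edited libraries lay below both controls for 5 of the 9 members (37.5% of all genes), and within the 8-cell stage for 7 of the 9 (32.7% of all genes). Genes were called at an adjusted p under 0.05 by limma on log2(CPM + 1), adjusted over all tested genes. At the 4-cell stage these 4 members were called lower and none higher. The share of all genes called there was 44.7% in either direction and 25.8% for lower values, so that a count of 4 in 9 (44.4%) is near the background in either direction. At the 8-cell stage 5 of 9 were called lower and none higher, where 15.6% of all genes were called in either direction and 14.5% lower. This count fell from 5 to 3, with HSP90AB1 and HSPE1 not called, without the second control library or either edited library of that stage. How many of all genes were called without those libraries is not given here. The median log2 fold change of the 9 was -0.52 at the 4-cell stage, beside -0.02 over all tested genes, and -0.71 at the 8-cell stage, beside 0.00 over all tested genes. The mean log2(CPM + 1) of the 17 tested granulosa and cumulus markers was then added to the model as a covariate. It weights each marker equally, unlike the CPM sums. With this covariate limma called 0 of the 9 at either stage (an unadjusted p under 0.05 was found for 1 member in 4-cell and 2 in 8-cell embryos), and 2 and 112 of all genes. The log2 fold changes were then -1.62 (SE 0.569, without the covariate -2.03, SE 0.240) for HSPA8, -1.03 (SE 0.576, without it -1.60) for HSPA5, -0.70 (SE 0.561, without it -1.33) for HSPD1 and -0.67 (SE 0.512, without it -0.75) for HSP90AB1 in 4-cell embryos. In 8-cell embryos they lay between -1.35 (HSPD1) and -0.69 (HSP90AB1), with SEs of 0.399 to 0.449. All 8 values thus stayed negative and were smaller in size, with larger SEs. What part follicular cells have in the results given here was not tested. In RNA from pooled embryos, fewer cells of a type and less RNA per cell cannot be told apart.

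**Figure D2:**
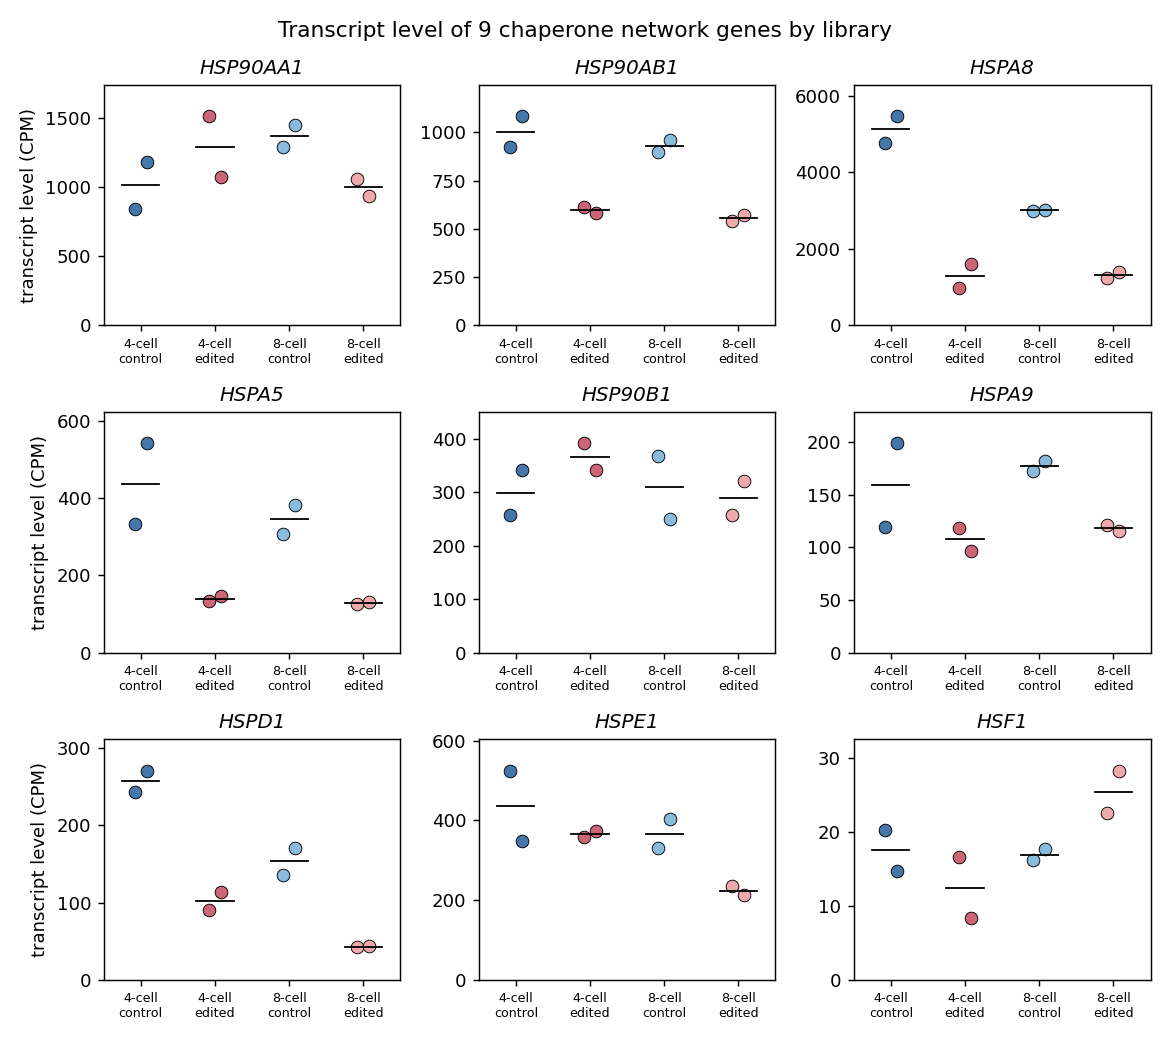
Transcript level in CPM (y axes, each from 0) of the 9 genes, with 1 point per library, a line at the mean of each pair and the 4 groups along the x axis. HSPA8, HSPA5, HSPD1 and HSP90AB1 have no edited library as high as any control library. The edited and control libraries of HSP90AA1, HSP90B1, HSPA9, HSPE1 and HSF1 share part of their range.

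Among the cytosolic chaperones, HSPA8, the constitutive HSP70 that also strips clathrin from vesicles, had the widest separation at the 4-cell stage. It stood at 4779 and 5464 CPM in the 4-cell control libraries and at 976 and 1593 CPM in the 4-cell edited libraries. Its 8-cell values were 2996 and 3021 CPM in control and 1249 and 1392 CPM in edited libraries. The lowest control library, of the 8-cell stage, thus lay above the highest edited library of either stage. Means were 5121 ± 484 CPM in control and 1284 ± 436 CPM in edited 4-cell embryos (SD, n = 2 libraries each), a 3.99-fold higher level in control, with a log2 fold change (log2FC) of -2.03 (SE 0.240, limma adjusted p 8.94e-06). In 8-cell embryos the means were 3009 ± 17.4 and 1320.3 ± 101 CPM (SD, n = 2 each), with a log2FC of -1.19 (SE 0.240, limma adjusted p 0.00220). The difference between the effects at the 2 stages, 0.84 on the log2 scale (SE 0.340), had an unadjusted p of 0.0244 and did not pass after adjustment (limma adjusted p 0.148).

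Of the pair of cytosolic HSP90 genes, 1 was called. HSP90AB1, the constitutive form, stood at 925 and 1084 CPM in 4-cell control and at 613 and 581 CPM in 4-cell edited libraries, and at 899.7 and 963 CPM in 8-cell control and 539.9 and 571 CPM in 8-cell edited libraries. Its log2FC was -0.75 at the 4-cell stage (SE 0.199, limma adjusted p 0.00640) and -0.74 at the 8-cell stage (SE 0.199, limma adjusted p 0.0161). The difference between the stages was 0.00, with a 95% interval of -0.60 to 0.60. For 8-cell embryos edgeR on the recovered reads gave an adjusted p of 0.0528 for HSP90AB1, and limma gave 0.122 without the second control library, 0.149 without the first edited and 0.0977 without the second edited library of that stage.

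HSP90AA1, the form that heat induces, did not pass at either stage. Its libraries stood at 843 and 1178 CPM in 4-cell control, 1509 and 1071 CPM in edited 4-cell embryos, 1289.7 and 1448 CPM among 8-cell controls, and 1059.9 and 933 CPM in 8-cell edited embryos. The 4-cell groups overlapped and the 8-cell groups did not. The log2FC was 0.35 at the 4-cell stage (95% interval -0.15 to 0.85, limma adjusted p 0.242) and -0.46 at the 8-cell stage (95% interval -0.96 to 0.04, limma adjusted p 0.227). The effects at the 2 stages differed by -0.81 (SE 0.331), with an unadjusted limma p of 0.0268 and an adjusted p of 0.156. Without the second 4-cell control library this difference was -1.05 and was called, with a limma adjusted p of 0.0461.

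Within a library the share of HSP90AA1 in the reads of both genes does not depend on the scaling to total reads. It was 47.7% and 52.1% in 4-cell control libraries and 71.1% and 64.8% in 4-cell edited libraries. In 8-cell embryos it was 58.9% and 60.1% in control and 66.3% and 62.0% in edited libraries. All 4 edited libraries thus lay above all 4 control libraries, by a mean of 11.4 percentage points within stage. An exact two-sided permutation test of edited against control labels within each stage gave p = 0.0556 (n = 8 libraries), which is the smallest value that its 36 arrangements allow. Counting error alone was at most ± 0.812 points (95% Wilson interval) in the shares given here and below, and reads of amplified cDNA are not independent molecules.

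**Figure D3:**
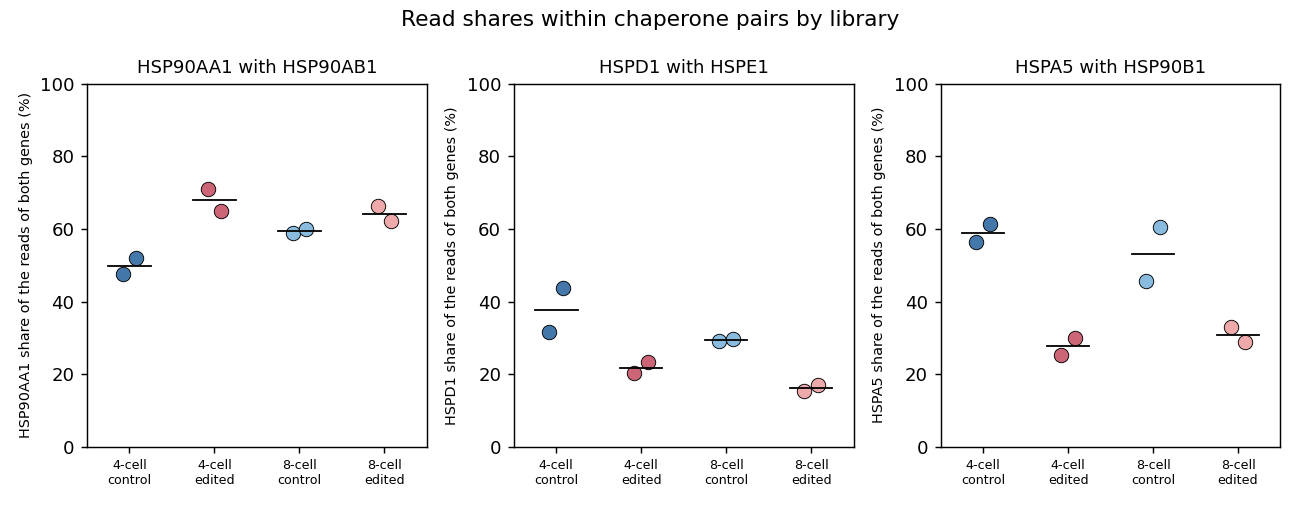
Share of the first gene in the reads of both genes of a pair (y axes, percent), with 1 point per library and a line at each group's mean. The HSP90AA1 share was 47.7% and 52.1% in 4-cell control libraries and 62.0% to 71.1% in the 4 edited libraries, whereas the HSPD1 and HSPA5 shares were lower in every edited than in every control library.

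Of the ER chaperones, HSPA5 (BiP), the HSP70 of the ER that holds the sensors of the unfolded protein response inactive, was lower in edited embryos. It stood at 332 and 541 CPM in 4-cell control and at 133 and 146 CPM in 4-cell edited libraries, and at 308 and 382 CPM in 8-cell control and 126 and 131 CPM in 8-cell edited libraries. The 4 edited libraries were close to each other, while the control libraries of a stage differed by up to 1.63-fold. Means were 437 ± 148 against 139 ± 8.81 CPM at the 4-cell stage (SD, n = 2 each; log2FC -1.60, SE 0.243, limma adjusted p 8.35e-05). In 8-cell embryos they were 345 ± 52.9 against 128 ± 2.98 CPM (SD, n = 2 each; log2FC -1.41, SE 0.243, limma adjusted p 0.000574). The effect differed between stages by 0.19 (95% interval -0.54 to 0.92).

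HSP90B1 (GRP94), the HSP90 of the ER, which folds integrins and Toll-like receptors, was not called. It stood at 258 and 341 CPM in 4-cell control, 392 and 342 CPM in edited 4-cell embryos, 368 and 251 CPM among 8-cell controls, and 258 and 320.4 CPM in 8-cell edited libraries. The log2FC was 0.30 at the 4-cell stage (95% interval -0.21 to 0.81) and -0.08 at the 8-cell stage (95% interval -0.59 to 0.43), with limma adjusted p of 0.329 and 0.868. These intervals, from the fit without a covariate, leave out a decrease of the size seen for HSPA5. With the granulosa and cumulus markers as covariate, the 4-cell log2FC was -0.56 (SE 0.544) for HSP90B1 and -1.03 (SE 0.576) for HSPA5. The difference between these genes was not tested in that fit, and the SE of each gene is not the SE of their difference. The share of HSPA5 in the reads of HSPA5 and HSP90B1 together was 56.3% and 61.3% in 4-cell control libraries and 25.4% and 29.9% in 4-cell edited libraries. Later, in 8-cell embryos, it was 45.5% and 60.4% in control and 32.9% and 29.0% in edited libraries. Edited libraries lay below control libraries by a mean of 26.6 percentage points within stage, again at the smallest p that the exact permutation test allows (0.0556, n = 8 libraries).

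The mitochondrial chaperones include HSPA9 (mortalin), which draws proteins through the inner membrane, and the chaperonin HSPD1 (HSP60) with its lid HSPE1 (HSP10). HSPD1 had the lowest adjusted p of the members at the 8-cell stage. It stood at 244 and 271 CPM in 4-cell control and at 90.6 and 114 CPM in 4-cell edited libraries. Its 8-cell values were 136 and 170.5 CPM in control and 42.9 and 43.2 CPM in edited libraries. Means were 257 ± 19.3 against 102 ± 16.5 CPM at the 4-cell stage (SD, n = 2 each), with a log2FC of -1.33 (SE 0.228, limma adjusted p 0.000237). They were 153 ± 24.5 against 43.0 ± 0.174 CPM at the 8-cell stage (SD, n = 2 each), a 3.56-fold higher level in control, with a log2FC of -1.80 (SE 0.228, limma adjusted p 4.34e-05).

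HSPE1 neighbours HSPD1 in the RefSeq annotation of the ARS-UCD2.0 assembly, with no other gene starting between them, and in mammals both genes are transcribed from a shared promoter region. HSPE1 stood at 525 and 347 CPM in 4-cell control and at 357 and 374 CPM in 4-cell edited libraries, where the groups overlapped. The 8-cell values of HSPE1 were 329.6 and 403 CPM in control and 235 and 212 CPM in edited libraries. The log2FC was -0.22 at the 4-cell stage (95% interval -0.71 to 0.26, limma adjusted p 0.457). The 8-cell value was -0.71 (SE 0.230, limma adjusted p 0.0479), a call that 13 of 18 alternative settings did not make, among them edgeR (adjusted p 0.128), DESeq2 (adjusted p 0.0876) and the fits without any single 8-cell library (limma adjusted p 0.0576 to 0.310). The share of HSPD1 in the reads of HSPD1 and HSPE1 together was 31.7% and 43.8% in 4-cell controls against 20.2% and 23.3% in edited 4-cell libraries. This share was, in 8-cell embryos, 29.2% and 29.7% in control and 15.5% and 16.9% in edited libraries. The difference averaged -14.6 percentage points within stage (exact permutation p 0.0556, n = 8 libraries). The 3 pair shares were among 5 measures tested in this way, all at the smallest p allowed and with a Benjamini-Hochberg adjusted p of 0.0556.

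HSPA9 stood at 119.7 and 199 CPM in 4-cell control, 119 and 96.8 CPM in edited 4-cell embryos, 172 and 182 CPM among 8-cell controls, and 121 and 115 CPM in 8-cell edited libraries. The log2FC was -0.52 at the 4-cell stage (limma adjusted p 0.103) and -0.58 at the 8-cell stage (limma adjusted p 0.146), so that neither stage alone gave a call. Averaged over both stages it was -0.55 (SE 0.177, limma adjusted p 0.0189), which was not called without the second 4-cell control, second 4-cell edited, second 8-cell control or second 8-cell edited library (limma adjusted p 0.0544 to 0.0725). The 4-cell effect of HSPA9 was -0.88 and called without the first 4-cell control library (limma adjusted p 0.0108) and -0.16 without the second (limma adjusted p 0.646). In this averaged comparison 6 of 9 members were called lower and none higher (HSPA8, HSPA5, HSPD1, HSP90AB1, HSPA9 and HSPE1), where 44.8% of all genes were called in either direction and 27.2% lower (17.6% higher). HSPE1, at -0.46 (limma adjusted p 0.0290), lost the call under 11 of 17 settings.

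HSF1, the regulator of the heat shock genes, was weakly expressed. It stood at 20.3 and 14.7 CPM in 4-cell control, 16.5 and 8.34 CPM in edited 4-cell embryos, 16.2 and 17.6 CPM among 8-cell controls, and 22.6 and 28.3 CPM in 8-cell edited libraries. The 2 edited 4-cell libraries differed 1.98-fold, the widest gap within a group among the members. Its log2FC values of -0.52 (95% interval -1.25 to 0.22) and 0.55 (95% interval -0.18 to 1.29) did not pass, with limma adjusted p of 0.245 and 0.332. They differed between the stages by 1.07 (SE 0.491, limma unadjusted p 0.0446, adjusted p 0.205).

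**Figure D4:**
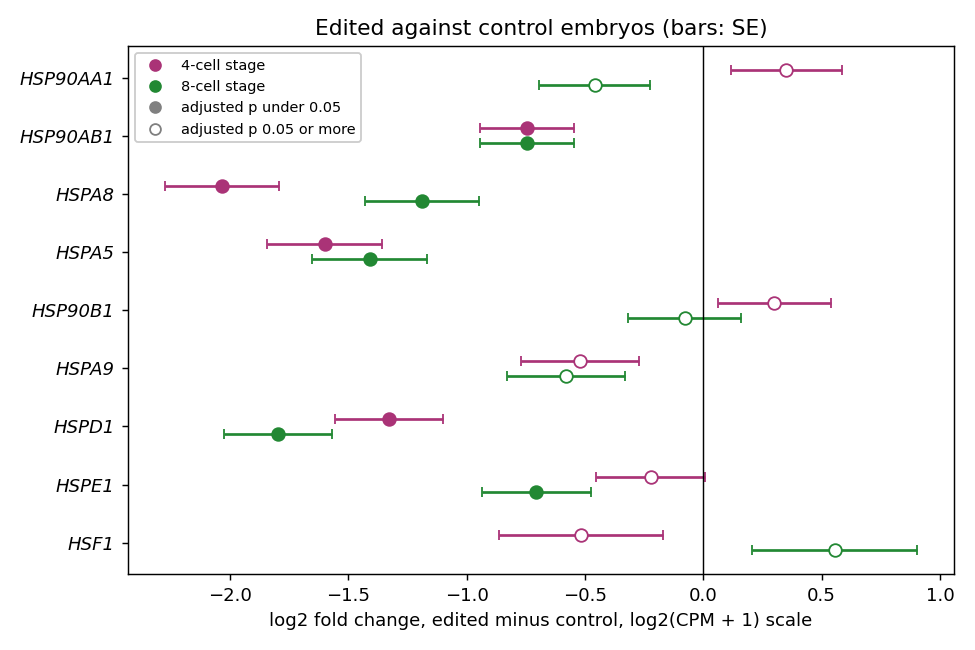
Log2 fold change of edited against control embryos (x axis, log2(CPM + 1) scale) for the 9 genes at the 4-cell and 8-cell stage, with bars of 1 SE and filled points for a limma adjusted p under 0.05. HSPA8, HSPA5, HSPD1 and HSP90AB1 are filled at both stages, with values from -2.03 to -0.74, and HSPE1 only in the 8-cell comparison.

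Of all reads, the 9 genes held 0.799% and 0.945% in 4-cell controls, 0.424% and 0.435% in edited 4-cell embryos, 0.648% and 0.683% among 8-cell controls, and 0.365% and 0.372% in 8-cell edited libraries. HSPA8 supplied 59.4% and 57.9% of these reads in 4-cell control and 46.0% and 44.2% in 8-cell control libraries. In edited libraries it supplied 23.2% and 36.8% at the 4-cell and 34.2% and 37.2% at the 8-cell stage. None of the 9 effects of editing differed between the stages after adjustment by limma. An unadjusted p under 0.05 was found for 3 of them (HSP90AA1, HSPA8 and HSF1), edgeR and DESeq2 called 0 as well, and limma called 3.96% of all genes (2.0% lower and 1.95% higher).

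Stage was then compared within each condition. In edited embryos HSPD1 was lower in 8-cell than in 4-cell embryos, the 1 call among the 9, where 5.18% of all genes were called (3.73% lower and 1.45% higher). Its mean went from 102 to 43.0 CPM, with a log2FC of -1.22 (SE 0.228, limma adjusted p 0.00913). Without the second 4-cell edited library or either 8-cell edited library limma gave an adjusted p of 0.0644 to 0.187. HSPE1 had a log2FC of -0.71 (limma adjusted p 0.0846) and HSF1 one of 1.04 (limma adjusted p 0.0944) between the stages of edited embryos, and neither passed. In control embryos 0 of 9 were called by limma, where 9.02% of all genes were (6.27% lower and 2.75% higher). The members nearest to a call there were HSPD1, with a log2FC of -0.75 (limma adjusted p 0.0503), and HSPA8, with one of -0.76 (limma adjusted p 0.0559), the 2 with an unadjusted p under 0.05. DESeq2 called both (adjusted p 0.0242 and 0.0427) and edgeR neither. HSPA8 in edited embryos had a log2FC of 0.08 between the stages (95% interval -0.43 to 0.59). The comparisons of stage and of editing share their libraries and are not independent.

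The other genes of the chaperone network were taken from 8 lists with 153 genes, of which 138 were tested. At the 4-cell stage 56 of the 138 were lower and 16 higher in edited embryos, with 66 not called (52.2% called, beside 44.7% of all genes). In 8-cell embryos 33 were lower, none was higher and 105 were not called (23.9% called, beside 15.6% of all genes), a number that was 14 without the second 8-cell control library and 17 and 18 without either 8-cell edited library. Over all genes 18.9% were called higher in 4-cell and 1.08% in 8-cell embryos. The share of all genes called in the fits that leave out a library is not given here.

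ER chaperones and folding enzymes, the longest of the lists, held the largest number of calls. At the 4-cell stage 17 of 29 were lower and 2 higher, with a median log2FC of -1.04, and at the 8-cell stage 12 were lower and none higher, with a median of -0.49. The shares called were 65.5% and 41.4%, beside 44.7% and 15.6% of all genes. PPIB (cyclophilin B), a prolyl isomerase, stood at 746 and 639 CPM in 4-cell control against 52.3 and 83.2 CPM in 4-cell edited libraries (log2FC -3.37, SE 0.252, limma adjusted p 6.14e-07). In 8-cell libraries it stood at 233 and 289.7 against 34.8 and 42.9 CPM, with a log2FC of -2.72. SDF2, a component of ER chaperone complexes, had log2FC values of -3.37 and -2.55 at the 2 stages (limma adjusted p 6.77e-07 and 1.11e-05). CALR (calreticulin), a lectin chaperone of glycoproteins, fell from 237 ± 5.23 CPM in control to 59.9 ± 12.8 CPM in edited 4-cell embryos (SD, n = 2 each), with a log2FC of -1.98. SERPINH1 (HSP47), the chaperone of procollagen, had one of -2.18 at the 8-cell stage (limma adjusted p 0.000650) at 9.12 and 16.5 CPM in control against 1.46 and 2.52 CPM in edited libraries. Collagen transcripts belong to the stromal markers, 8 of 9 of which were called lower at each stage, and the part of such cells in these values was not tested.

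Of 24 sensors and effectors of the unfolded protein response, 8 were lower and 2 higher at the 4-cell stage (median -0.08), and 3 lower and none higher at the 8-cell stage (median -0.18). The shares called, 41.7% and 12.5%, were near those of all genes, 44.7% and 15.6%. At the 8-cell stage edgeR called 2 and DESeq2 5 of the 24. SELENOS and HERPUD1, which act in the removal of misfolded ER proteins, were lower at both stages. SELENOS had log2FC values of -3.03 and -2.83 (limma adjusted p 1.20e-06 and 5.70e-06), and HERPUD1 of -3.21 and -2.31 (limma adjusted p 1.80e-06 and 8.25e-05). HERPUD1 stood at 101 and 99.5 CPM in 4-cell control and 9.66 and 10.2 CPM in 4-cell edited libraries. XBP1, the transcription factor spliced by the sensor ERN1, stood at 185 and 168 against 53.0 and 51.4 CPM at the 4-cell stage (log2FC -1.74, SE 0.224, limma adjusted p 2.01e-05).

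The cytosolic chaperonin TRiC and its delivery factor prefoldin, which fold actin and tubulin, had 6 of 14 genes lower at the 4-cell and 4 lower at the 8-cell stage, and none higher (medians -0.53 and -0.39). The 42.9% called at the 4-cell stage is near the 44.7% of all genes, and the 8-cell share was 28.6%, beside 15.6%. CCT6A stood at 252 and 304 CPM in 4-cell control against 47.1 and 68.7 CPM in 4-cell edited libraries, and at 156 and 137 against 19.2 and 17.7 CPM at the 8-cell stage. Its log2FC values were -2.26 and -2.92 (SE 0.247 each, limma adjusted p 4.57e-06 and 2.51e-06). TCP1 had log2FC values of -1.33 and -1.46, CCT7 one of -1.65 at the 4-cell stage and CCT4 one of -1.29 at the 8-cell stage.

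HSP90 and HSP70 cochaperones were lower in 10 and higher in 1 of 23 genes at the 4-cell stage (median -0.64), and lower in 7 and higher in none at the 8-cell stage (median -0.02). The 4-cell share of 47.8% is near the background of 44.7%, and the 8-cell share was 30.4%, beside 15.6%. ST13 (HIP), which stabilises the ADP-bound HSP70, stood at 528 and 425 CPM in 4-cell control against 171 and 179.7 CPM in 4-cell edited libraries, and had log2FC values of -1.43 and -0.98 at the 2 stages. STUB1 (CHIP), a ubiquitin ligase that marks chaperone clients for degradation, fell by 2.62 at the 4-cell stage. PTGES3 (p23), which closes the HSP90 cycle, had a log2FC of -1.24 at the 8-cell stage (limma adjusted p 0.000849).

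Among 16 mitochondrial chaperones and quality control proteases 7 were lower and 2 higher at the 4-cell stage (median -0.80), against 1 lower and none higher at the 8-cell stage (median -0.22). These are 56.2% of the list, beside 44.7% of all genes, and 6.25%, beside 15.6%. CLPP, a protease of the matrix, had a log2FC of -2.18 at the 4-cell stage, and the prohibitins PHB1 and PHB2, which form rings in the inner membrane, had values of -1.36 and -1.65. DNAJC15, the 1 gene called at the 8-cell stage, stood at 30.9 and 32.5 CPM in control and 15.2 and 14.2 CPM in edited libraries (log2FC -1.06, limma adjusted p 0.0357), and edgeR called 0 of the 16 there.

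The remaining lists moved in both directions at the 4-cell stage. Of 9 tested HSP70, HSP110 and small heat shock protein genes, 3 were lower and 2 higher at the 4-cell stage, and 4 were lower at the 8-cell stage (55.6% and 44.4% called, beside 44.7% and 15.6% of all genes). HSPB1 (HSP27), a small heat shock protein that binds actin and unfolded clients, stood at 336 and 147 CPM in 4-cell control against 23.4 and 26.1 CPM in 4-cell edited libraries (log2FC -3.12, SE 0.364, limma adjusted p 8.05e-06), and had a log2FC of -2.25 at the 8-cell stage. HSPA4, an HSP110-type exchange factor of HSP70, had one of -1.02 and CRYAB, a small heat shock protein of lens and muscle, one of -2.45 at the 8-cell stage, the latter with control libraries at 18.5 and 54.1 CPM. The HSP70 relatives HSPA4L and HSPA2, both known for roles in the testis, were higher in 4-cell edited embryos. HSPA4L stood at 72.3 and 135 CPM in control against 263 and 295 CPM in edited libraries (log2FC 1.49, limma adjusted p 0.000436). HSPA2 stood at 33.0 and 28.3 CPM against 71.6 and 68.3 CPM (log2FC 1.17, limma adjusted p 0.00144).

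J-domain proteins of cytosol and nucleus were called higher in 6 and lower in 3 of 19 genes at the 4-cell stage, and 0 of 19 were called by limma at the 8-cell stage (2 had an unadjusted p under 0.05, and edgeR and DESeq2 called 0). The 47.4% called in 4-cell embryos is near the 44.7% of all genes (18.9% higher and 25.8% lower). At the 8-cell stage 15.6% of all genes were called. The median log2FC values of the list were 0.19 and 0.05. DNAJC13, an endosomal J-domain protein, had a log2FC of 1.39 at the 4-cell stage (limma adjusted p 0.00118), DNAJC27 one of 1.13 and DNAJB5 one of -1.38. Of 4 tested heat shock transcription factors and partners, 2 were lower and 1 higher at the 4-cell stage, and 2 lower at the 8-cell stage. The shares called were 75% and 50%, beside 44.7% and 15.6% of all genes. HSF2 had log2FC values of -1.67 and -1.39 (limma adjusted p 0.000700 and 0.00691). HSBP1, which binds HSF1 and damps it, had log2FC values of -1.61 and -1.27 (limma adjusted p 0.000208 and 0.00360). HSF2 stood at 76.5 and 63.2 CPM in 4-cell control against 15.2 and 29.3 CPM in 4-cell edited libraries.

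**Figure D5:**
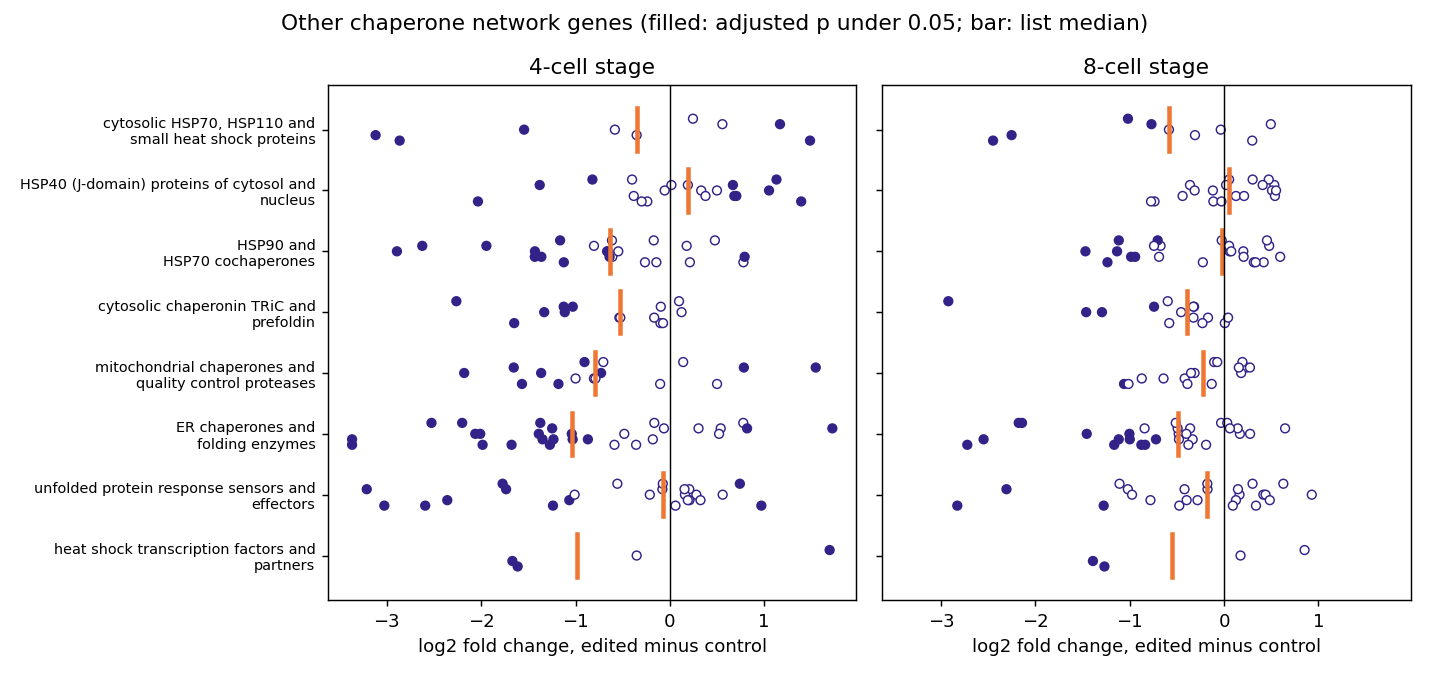
Log2 fold change of edited against control embryos (x axes, log2(CPM + 1) scale) for the 138 tested genes of 8 chaperone lists, with 1 point per gene, filled where the limma adjusted p was under 0.05, and an orange bar at each list's median. At the 4-cell stage 56 genes were called lower and 16 higher, and at the 8-cell stage 33 lower and none higher.

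Genes outside the lists with the most similar pattern over the 8 libraries were found by Pearson's r of log2(CPM + 1) among 7281 genes averaging at least 10 CPM. This is a description, as the libraries share stage and editing groups and many genes were nearly as close. HSPA8 was nearest to VDAC1, the anion channel of the outer mitochondrial membrane (r 0.99), ST7 (r 0.99) and the lysosomal enzyme PPT1 (r 0.99), with 921 genes above 0.9. HSPA5 was nearest to PARP8 (r 0.98), the lactate dehydrogenase subunit LDHB (r 0.98) and NECAP1 (r 0.98), with 677 genes above 0.9. HSPD1 was nearest to TMEM17 (r 0.997), MRPL30 (r 0.996) and the cadherin CDH2 (r 0.994), with 843 genes above 0.9.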

How the data were processed

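The submitters' processing notes name Trim Galore 0.6.7, HISAT2 2.2.1 and featureCounts 2.0.1; genome build, annotation and strand setting are not given in the sources used here. The deposited values are CPM, scaled by the authors to an effective library size, although the table is named for raw reads. Of 12 columns, 8 match a sample by name and 4 were used in no step. In every column 100% of positive values were whole multiples of 1 step, within 0.05 reads, so whole reads were recovered; 3 reads are worth 0.0858 to 0.0899 CPM, below every member's values. Chaperone genes such as HSP90AA1, HSPA8, HSPD1 and HSPE1 have processed pseudogenes, and reads that the counting could split between copies make their levels uncertain.

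The main test was limma 3.58.1 (R 4.3.3) on log2(CPM + 1), with its variance trend, over 12129 genes that averaged 1 CPM or more, with 1 mean per group over all 8 libraries and Benjamini-Hochberg adjustment. It was checked on simulated counts with few changed genes, up and down in equal number, and a single fixed dispersion. Many more genes were called in these data, and the check does not cover that setting. Fold changes on this scale understate changes of weak genes. Alternatives were edgeR 4.0.16 on recovered reads (5172, 1695 and 5576 genes called at the 4-cell stage, at the 8-cell stage and averaged), DESeq2 1.42.0, TMM rescaling, pseudocounts of 0.5 and 5 CPM, no filter or one at 5 CPM, a replicate block, a marker covariate, only the libraries compared, and leaving out each library. Members, lists and tests were chosen with earlier results of these data known. All members in the table are named, and 1 further gene is not reported here by name; from each list, up to 3 called genes per stage with the smallest p and a mean of at least 10 CPM.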

Additional observations from a re-analysis of the deposited data

Results flagged for a closer look

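No member's editing effect differed between stages after adjustment, but 10 of the 138 other chaperone network genes did (7.25%, beside 3.96% of all genes) by limma's test of the difference itself (8-cell effect minus 4-cell effect, log2 scale), and 9 of them are given here. The 4-cell values were negative and the 8-cell values closer to 0 or above it for STUB1 (1.88), CCT7 (1.07), CLPP (1.87), PHB2 (1.93), CRELD2 (1.53), XBP1 (1.32) and EDEM2 (2.08). SEC63, a J-domain protein of the ER translocon, had log2 fold changes of 1.72 and 0.15 and a difference of -1.58. HSPH1 (HSP105), an exchange factor of HSP70, had log2 fold changes of 0.56 and -0.77 and a difference of -1.33. The adjusted p of these 9 lay between 0.0219 and 0.0492. DESeq2 called all 9 and edgeR none (adjusted p 0.0628 to 0.110). The limma call of all 9 was lost with no filter on low values, with the marker covariate, without the first 4-cell control library, without either 4-cell edited library, without the first 8-cell control library and without either 8-cell edited library.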

How the results depend on the processing

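HSPA8, HSPA5 and HSPD1 were called lower at both stages under every alternative except the marker covariate, with which they stayed negative. Of 954 alternative values of the members 854 kept direction and side of the threshold, 49 lost a call, 10 gained one, 41 changed sign without a call on either side and 0 reversed a call. Many of these values could not change direction. The filter, the replicate block or leaving out a library of the other stage keeps the log2 fold change of editing within a stage as it was. The comparisons also share their group means, so the 954 values are not independent and their tally does not measure robustness. With the marker covariate 0 members were called at the 4-cell stage, at the 8-cell stage and averaged, and 0, 3 and 3 genes of the wider lists. Averaged over stages HSPA8 was then -1.26 (SE 0.473, without the covariate -1.61, SE 0.170), HSPA5 -1.02 (-1.505), HSPD1 -1.03 (-1.56) and HSP90AB1 -0.68 (-0.75). At the 8-cell stage edgeR called 3 members, and no filter 21 listed genes. Between stages of control embryos 1 member was called with a pseudocount of 5 or a filter at 5 CPM and 2 by DESeq2. Between stages of edited embryos 0 were called without a filter and 2 when only those libraries were fitted. Leaving out 1 library gave 3 to 5 members and 14 to 36 listed genes at the 8-cell stage, 0 to 1 for the difference between stages, and 0 to 2 between stages of edited embryos. Same-numbered libraries deviated with a correlation of 0.11 at the 4-cell stage, -0.09 at the 8-cell stage, -0.30 in controls and 0.02 in edited embryos, and the numbers were not taken to pair libraries. With the replicate block 4, 4 and 6 members were called at the 4-cell stage, at the 8-cell stage and averaged. With a crossed block in the controls, chosen after seeing the data, 2 members were called between stages of control embryos. For most of these alternatives the number of all genes called is not given here. A change in a count therefore cannot be read as particular to the chaperone genes. Read shares per transcript length and HSPA1A were not run.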

Other observations

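The 16 chaperone network genes that rose at the 4-cell stage were looked at after their values were seen. They include the mitochondrial unfoldase CLPX, at means of 124 CPM in control and 348 CPM in edited libraries, beside its partner protease CLPP, which was lower at 20.4 against 95.6 CPM. DDIT3 (CHOP), a transcription factor induced by ER and amino acid stress, was higher at 409.99 against 242 CPM (log2FC 0.74, limma adjusted p 0.0133), whereas ATF4, its activator, was lower at 108 against 226 CPM (log2FC -1.07, limma adjusted p 0.00122). At the 8-cell stage DDIT3 stood at 652 against 419 CPM and did not pass (limma adjusted p 0.0726). HSF5, a testis-associated heat shock factor, averaged 6.17 CPM in edited 4-cell libraries, against 1.37 CPM (log2FC 1.69, limma adjusted p 0.00471).

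Between the stages of control embryos 20 of the 138 genes were lower and 4 higher at the 8-cell stage (17.4% called, beside 9.02% of all genes), and between the stages of edited embryos 7 were lower and 2 higher (6.52%, near the 5.18% of all genes). These comparisons reuse the libraries of the comparisons between edited and control embryos.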
